A study of Mus musculus with 4 samples.

Results

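The uncoupling proteins Ucp1, Ucp2 and Ucp3 and the ADP/ATP carriers Slc25a4 (ANT1) and Slc25a5 (ANT2) were examined in mouse brown adipocytes, the thermogenic fat cells. The 5 genes were taken by name, through every probe set of the array whose platform annotation gives a single symbol. This found 7 probe sets for 4 of the genes, 1 each for Ucp1, Ucp3 and Slc25a4 and 4 for Slc25a5, among 10926 genes named in this way. No probe set was annotated to Ucp2 alone, and that gene was not analysed here. Brown adipocytes expressing Blnc1 (brown fat lncRNA 1, a long noncoding RNA) were compared with brown adipocytes expressing the vector. Each group had 2 arrays. Both groups were labelled wild type, came from preadipocytes that expressed Blnc1 or vector, and were differentiated for 6 days. The labels do not give the promoter of the vector, whether the cells were a line or a primary culture, or whether the replicates, which they call biological, were transduced separately, so p-values measure the spread between these arrays only.

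Uncoupling proteins and ADP/ATP carriers are inner membrane proteins of mitochondria and belong to the SLC25 carrier family. Ucp1 is the defining protein of brown fat: when fatty acids activate it, protons return to the matrix through it without passing the ATP synthase, and the energy of respiration is released as heat. Ucp2 and Ucp3 are its close relatives, with Ucp3 known mainly from skeletal muscle and brown fat, and their part in proton transport is less settled. The ADP/ATP carriers export ATP in exchange for ADP, and they can also carry a fatty acid dependent proton leak. Slc25a4 is the isoform of heart and skeletal muscle and is also found in brown fat, and Slc25a5 is the widespread isoform.

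The 250 bases before the annotated start of the 4 measured genes are printed below. Any link between these sequences and the responses of the genes was not tested. They come from RefSeq (GRCm38.p6) and run 5′ to 3′ toward the start. Capitals mark the letters TATA (core promoter), TGACG (part of the cAMP response element), AGGTCA (the repeat unit of nuclear receptor elements) and CCAAT, on either strand.
Ucp1, chr8:83290098-83290347, plus strand: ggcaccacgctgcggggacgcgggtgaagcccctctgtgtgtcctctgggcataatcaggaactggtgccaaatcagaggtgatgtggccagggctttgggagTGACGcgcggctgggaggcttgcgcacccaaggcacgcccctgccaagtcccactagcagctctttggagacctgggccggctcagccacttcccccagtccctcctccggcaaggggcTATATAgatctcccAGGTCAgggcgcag
Ucp3, chr7:100472741-100472990, plus strand: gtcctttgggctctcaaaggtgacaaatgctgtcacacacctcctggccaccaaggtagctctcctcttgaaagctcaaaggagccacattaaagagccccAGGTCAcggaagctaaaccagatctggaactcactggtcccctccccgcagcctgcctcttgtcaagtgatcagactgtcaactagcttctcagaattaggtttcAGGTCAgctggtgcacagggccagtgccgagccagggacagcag
Slc25a4, chr8:46211063-46211312, minus strand: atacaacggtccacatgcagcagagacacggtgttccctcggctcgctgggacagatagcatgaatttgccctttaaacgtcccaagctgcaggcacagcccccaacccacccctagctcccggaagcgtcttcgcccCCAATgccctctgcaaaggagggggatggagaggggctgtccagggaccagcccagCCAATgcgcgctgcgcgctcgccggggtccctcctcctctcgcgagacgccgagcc
Slc25a5, chrX:36795347-36795596, plus strand: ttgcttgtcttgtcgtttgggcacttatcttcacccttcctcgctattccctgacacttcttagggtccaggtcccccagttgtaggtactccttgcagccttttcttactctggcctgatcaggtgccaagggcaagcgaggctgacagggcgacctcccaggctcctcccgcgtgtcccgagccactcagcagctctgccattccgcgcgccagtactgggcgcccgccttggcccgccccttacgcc
The search covered 300 bases, 250 before and 50 after the start. In the Ucp1 window TATA began 28 bases before the start and, overlapping it, 26 bases before. AGGTCA began 14 bases and TGACG 147 bases before the Ucp1 start. The Ucp3 window held AGGTCA at 149 and 44 bases before the start and TGACG on the opposite strand 28 bases after it. The Slc25a4 window held CCAAT at 112 and 56 bases before the start and TATA 6 bases after it. In the Slc25a5 window only TATA was found, at 25 and, overlapping, 27 bases after the start. Among 32851 promoter windows of this length, TATA was present in 36.7%, TGACG in 20.8%, AGGTCA in 16.3% and CCAAT in 37.4%. The known distal enhancer of Ucp1 lies outside these windows.

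The arrays had medians between 5.98 and 6.04 log2 units. Replicates differed by a median of 0.10 log2 units per probe set (Blnc1) and 0.091 (vector), against 0.13 to 0.14 between arrays of different groups. The Blnc1 transcript itself was read through probe sets annotated C730029A08Rik, which shares the Paqr9 entry with Blnc1 in the RefSeq table. The brighter of the 2 was 24.8-fold higher in Blnc1 arrays, and the dimmer did not pass (log2 fold change -0.31). All 18 hybridization control probe sets were lower in Blnc1 arrays, by a median of 0.27 (difference -0.27). The 3′ minus 5′ difference, a sign of RNA quality, was 0.28 in Blnc1 and 0.41 in vector arrays for Gapdh, and 1.34 and 1.51 in the same order for Actb. The part of these shifts in the results below was not tested. General adipocyte markers had a mean level of 9.84 to 9.88 in Blnc1 and 9.92 to 9.94 in vector arrays. This was over 13 measured genes of 16 listed, of which 2, Lep and Pnpla2, were below the array medians. Lep, named after its values were seen, averaged 4.12 in Blnc1 and 3.93 in vector arrays, and Pnpla2 averaged 4.26 in Blnc1 and 4.57 in vector arrays. The measured markers of macrophages and leukocytes, skeletal muscle and endothelium were dim and none passed the test. Most listed genes were not measured: 3 of 10, 3 of 16 and 2 of 8 were, in the same order. The mean level of 3 macrophage and leukocyte genes was 4.40 to 4.41 in Blnc1 and 4.28 to 4.37 in vector arrays. That of 3 skeletal muscle genes was 4.32 to 4.47 in Blnc1 and 4.31 to 4.38 in vector arrays. That of 2 endothelial genes was 4.17 to 4.21 in Blnc1 and 4.15 to 4.33 in vector arrays. In these bulk samples a change in the number of mature cells and a change in RNA per cell cannot be told apart.

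Ucp1 rose strongly in Blnc1 cells. Its probe set (1418197_PM_at) read 7.97 and 8.05 in the Blnc1 arrays, against 5.01 and 5.01 in the vector arrays. Both Blnc1 arrays stood well above both vector arrays, and the vector arrays lay below the array medians while the Blnc1 arrays lay above them. The group means were 8.01 ± 0.053 in Blnc1 and 5.01 ± 0.0015 in vector cells (SD, n = 2 each), a 7.99-fold rise with a 95% interval of 6.996 to 9.12 (log2 fold change 2.997 with SE 0.078). It passed the test (limma, adjusted p = 2.70e-04 after the Benjamini-Hochberg procedure). Because the vector value was dim, where RMA compresses differences, the fold can be understated. Its p was the second smallest of all probe sets after the Blnc1 transcript (rank 2), and 0.00847% of all probe sets had a larger absolute change. Ucp1 was the only one of the 7 member probe sets to pass, in a comparison where 0.928% of all probe sets were called, 0.623% higher and 0.305% lower. Leaving out each array in turn kept its log2 fold change between 2.96 and 3.04 and its limma adjusted p at or below 0.00679.

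Ucp3 read 4.63 and 4.67 in the Blnc1 arrays, against 4.83 and 4.90 in the vector arrays (1420658_PM_at). All 4 arrays were dim, below the array medians, and both Blnc1 arrays were below both vector arrays. The log2 fold change was -0.21 ± 0.078 (SE), with a 95% interval of -0.40 to -0.023. This missed the threshold (limma, adjusted p = 0.219). The interval before adjustment for multiple testing lay wholly below 0, so the value gives no sign of a rise like that of Ucp1, its relative.

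Ucp2 and Ucp3 are neighbours in the reference gene table, and C2cd3 and Ppme1 come next to Ucp3 on its other side. C2cd3, a centriole protein gene, read 6.88 and 6.80 in Blnc1 and 6.54 and 6.76 in vector arrays (log2 fold change 0.19 ± 0.10 SE). Ppme1, a protein phosphatase methylesterase gene, stood at 0.23 ± 0.088 (SE). Neither passed (limma adjusted p = 0.378 and 0.245).

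**Figure D1:**
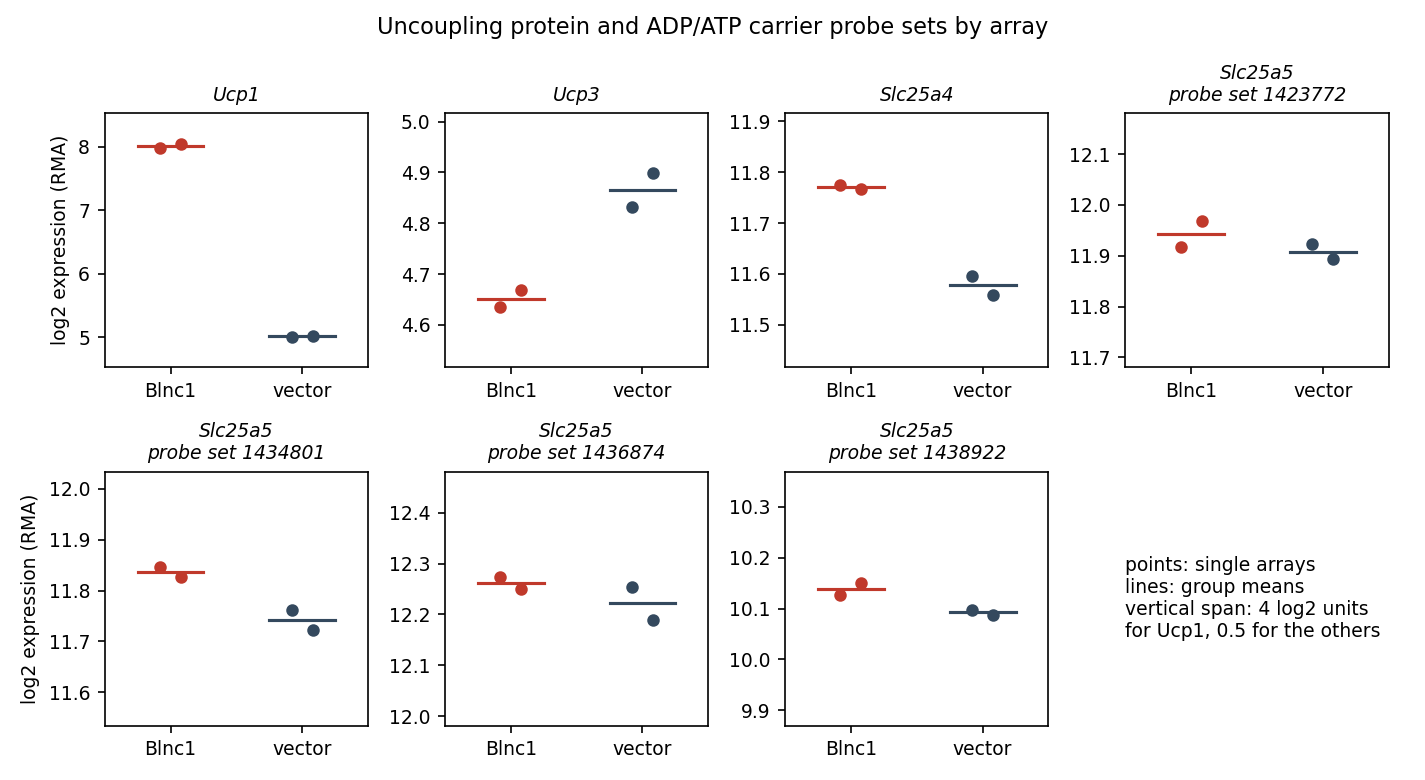
Expression of each probe set on the log2 scale in Blnc1 (red) and vector (dark) arrays. Points are single arrays and lines are group means, and the axes span 4 log2 units for Ucp1 and 0.5 for the others, so that Ucp1 is separated by 2.997 log2 units while the other panels differ by at most 0.21.

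The ADP/ATP carriers were bright in both groups and changed little. Slc25a4 read 11.77 and 11.77 in the Blnc1 arrays, against 11.60 and 11.56 in the vector arrays (1424562_PM_a_at). Both Blnc1 arrays were above both vector arrays, by more than the replicates differed from each other. The difference was 1.14-fold, with a 95% interval of 1.01 to 1.30 (log2 fold change 0.19 ± 0.076 SE), and it missed the threshold (limma, adjusted p = 0.247). The call depended on the variance model: with a prior that follows the level of the probe sets, which are less variable when bright, the standard error was 0.0324 and the limma adjusted p was 0.0038. Under that prior 9.21% of all probe sets were called, and the share among equally bright ones was not counted.

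The widespread isoform Slc25a5 had 4 probe sets, and all 4 log2 fold changes were positive and small, between 0.035 and 0.095. Its brightest probe set (1436874_PM_x_at) read 12.27 and 12.25 in the Blnc1 arrays, against 12.25 and 12.19 in the vector arrays. The groups overlapped there. The log2 fold change was 0.041 ± 0.077 (SE), with a 95% interval of -0.15 to 0.23. The probe set 1434801_PM_x_at read 11.85 and 11.83 in Blnc1 and 11.76 and 11.72 in vector arrays. This was the largest difference of the 4, with no overlap (log2 fold change 0.095 ± 0.076 SE). The probe set 1423772_PM_x_at read 11.92 and 11.97 in Blnc1 and 11.92 and 11.89 in vector arrays, with overlap, and its difference of 0.035 changed sign when quantile normalization was repeated. The dimmest, 1438922_PM_x_at, read 10.13 and 10.15 in Blnc1 and 10.10 and 10.09 in vector arrays, without overlap. None of the 4 passed (limma adjusted p 0.556 to 0.852), and their 95% intervals left room for changes of at most 1.22-fold upward. All 4 carry the suffix of probe sets prone to cross-hybridisation, and the reference gene table lists pseudogenes of Slc25a5, so signal from near-identical copies cannot be separated. Averaged over its probe sets, Slc25a5 stood at 0.054 ± 0.072 (SE), with an interval of -0.12 to 0.23.

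Over all 7 member probe sets 6 log2 fold changes were positive, against 51.3% of all probe sets, and the groups did not overlap for 5, against 50.4% of all probe sets. Of these, 4 had both Blnc1 arrays above both vector arrays, against a background of 26.4%, and 1 had them below, against 24%. Besides Ucp1, Ucp3 and Slc25a4 had an unadjusted p under 0.05 (0.0336 and 0.0434), as 18.9% of all probe sets did. Only Ucp1 lay outside the range that holds the middle 95% of all probe sets, -0.39 to 0.42.

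**Figure D2:**
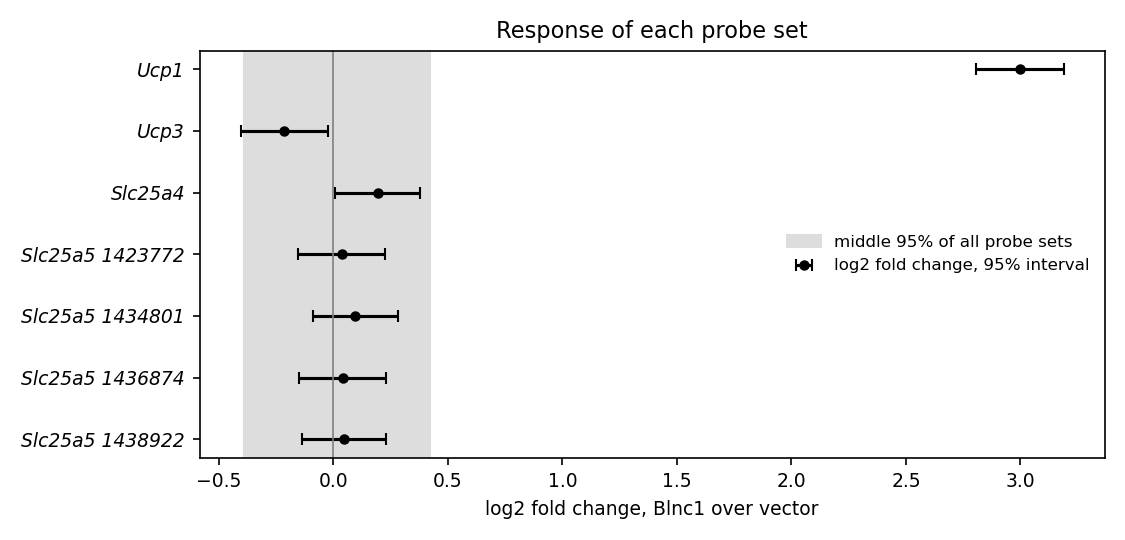
Log2 fold change of each member probe set, Blnc1 over vector, with its 95% interval from limma. The grey band holds the middle 95% of all probe sets (-0.39 to 0.42). Ucp1 stands at 2.997, and the other 6 lie inside the band.

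Whether the members responded differently from each other was examined through the difference of 2 members' log2 values within each array, over 6 pairs of genes on their representing probe sets. The log2 fold change of Ucp1 exceeded that of Ucp3 by 3.21, that of Slc25a5 by 2.96 and that of Slc25a4 by 2.80. The spread of these within-array differences between replicates was 0.038, 0.060 and 0.046 (pooled SD), far less than the gaps. Slc25a4 exceeded Slc25a5 by 0.15 (pooled SD 0.016). The fold change of Ucp3 was below that of Slc25a4 (difference -0.41, pooled SD 0.056) and of Slc25a5 (-0.25, pooled SD 0.072). The exact permutation test gave p = 0.333 for each pair (two-sided, n = 2 arrays per group, also 0.333 after adjustment over the 6 pairs), the smallest that 4 arrays allow, so no pair could pass.

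The genes whose 4 array values followed Ucp1 most closely were Cidea, Mb, Itih4, Kng1 and Itih5, judged by the root mean square difference after each gene's mean was taken off. Cidea, a lipid droplet protein of brown fat, was by far the nearest, at 0.0775 log2 units. It read 10.37 and 10.56 in Blnc1 and 7.37 and 7.31 in vector arrays. Mb, the gene of the oxygen-binding protein myoglobin, followed at 0.406. The secreted proteins Itih4, Kng1 and Itih5 lay at 0.687, 0.721 and 0.729, since they rose less, with log2 fold changes of 1.67, 1.57 and 1.54. With 4 arrays in 2 groups this likeness describes mainly the size of the change between the groups.

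**Figure D3:**
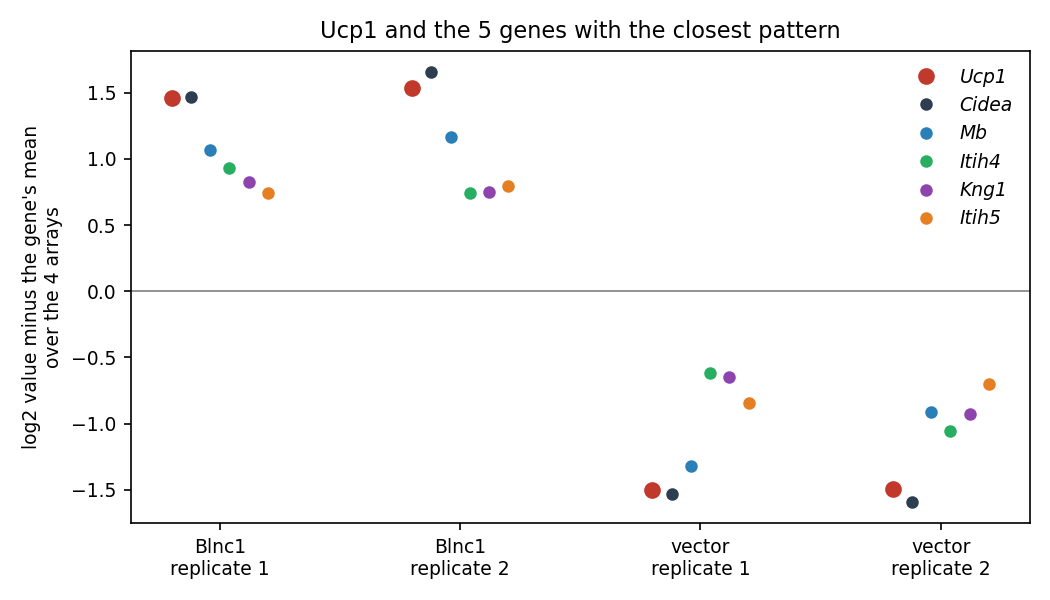
Values of Ucp1 and the 5 genes closest to it in each of the 4 arrays, as log2 units from each gene's own mean. Ucp1 and Cidea nearly coincide in all arrays (root mean square difference 0.0775), while Mb (0.406) and the 3 secreted protein genes span a smaller range.

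Other brown adipocyte genes rose with Ucp1. Of 22 listed genes 15 were measured, and of these 9 rose and none fell, with a median log2 fold change of 0.73. Over all genes 1.23% were called, 0.86% higher and 0.366% lower, and the median was 0.0073. The list was chosen with these results known and is no independent evidence. After Cidea the largest were Cpt1b, which admits fatty acids to mitochondria (1.37 ± 0.085 SE), followed by Cox7a1 (1.28 ± 0.080) and Cox8b (1.13 ± 0.076), subunits of respiratory complex IV. The other 5 were Dio2, Pdk4, Plin5, Ppara and Mpzl2, between 0.73 and 1.05. The other probe set of Mpzl2 stood at 0.71 and did not pass, and that of Plin5 passed at 0.73. Of the 6 that did not pass, Lhx8, a transcription factor gene named after its values were seen, was the only negative one. It read 4.57 and 4.53 in Blnc1 and 5.06 and 5.06 in vector arrays (log2 fold change -0.50 ± 0.076 SE, limma adjusted p = 0.0547). With the arrays centred on their medians, or with probe set means, the list counted 9 rises and 1 fall. With the level-dependent prior it counted 12 rises and 1 fall, where 11.3% of all genes were called, 6.38% higher and 4.94% lower. The count of 9 rises fell to 1 without either Blnc1 array, and to 4 without either vector array. Preadipocyte and fibroblast markers moved beside them: all 9 measured, of 12 listed, were negative, where 51.6% of all genes were positive. Their median was -0.22 and none passed the test, and Col3a1, Dlk1 and Thy1 stood at -0.45, -0.42 and -0.34. With the level-dependent prior Col3a1, Dlk1 and Col1a1 fell, 3 of 9 where 4.94% of all genes were called lower. Col1a1, at -0.47, was named after its values were seen. With probe set means 2 of the 9 fell, and the share of all genes called there is not given here. Without the dimmer probe sets 1 of 4 fell, where 394 of 11800 probe sets were called lower. Without vector replicate 1 the median of the list was -0.35. Their mean level was 6.52 in both Blnc1 arrays and 6.76 and 6.81 in the vector arrays, and their part in the Ucp1 result was not tested. General adipocyte markers had a median of -0.046 over 13 measured genes, with 1 fall, of the adipokine resistin (Retn, -0.67 ± 0.081 SE). Without any 1 of the 4 arrays that fall no longer passed. Next by p came Pnpla2 (-0.31) and Cebpa (-0.23), which did not pass. With the level-dependent prior Retn, Cebpa and Adipoq fell, 3 of 13 where 4.94% of all genes were called lower. The share among equally bright genes was not counted. Adipoq, at -0.12, was named after its values were seen. The median was -0.0093 without Blnc1 replicate 2, -0.016 without vector replicate 1 and -0.015 without vector replicate 2.

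The measured genes known to act on Ucp1 transcription changed far less than Ucp1. Of 27 listed genes 23 were measured. The coactivator gene Ppargc1a, the adrenergic receptor genes Adrb1 and Adrb3, and Foxc2 had no probe set annotated to them alone and were not read. Of the 23, 2 rose and none fell, against 0.86% of all genes called higher and 0.366% lower. The median log2 fold change was 0.10, against 0.0073 over all genes. Dio2, the deiodinase that makes active thyroid hormone inside the cell, read 4.77 and 4.96 in Blnc1 and 3.91 and 3.73 in vector arrays, a 2.07-fold rise at a dim level (limma adjusted p = 0.0289). Ppara, a nuclear receptor for fatty acids that binds as a dimer to AGGTCA repeats, read 8.14 and 8.09 in Blnc1 and 7.48 and 7.29 in vector arrays (1.66-fold, limma adjusted p = 0.0434). Its other 2 probe sets also passed, at 1.01 and 0.87. Thrb, the beta thyroid hormone receptor, stood at -0.49 ± 0.089 (SE) and did not pass. Neither rise passed without any 1 of the 4 arrays, and with the level-dependent variance prior, under which 11.3% of all genes were called, 6 genes rose and 4 fell. Those gained, named after their values were seen, were the coactivator Ppargc1b (0.28), Cebpb (0.30), Ebf2 (0.38) and Esrrg (0.40) upward, and the corepressor Nrip1 (-0.32), Rxra (-0.40), Cebpa (-0.23) and Thrb downward.

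The ADP/ATP carriers work with the ATP synthase, the phosphate carrier Slc25a3 and the VDAC channels of the outer membrane. All 23 genes of a list built around these were measured, 18 were positive against 51.6% of all genes, none passed and the median log2 fold change was 0.032. Slc25a3, named after its values were seen, stood at -0.037 ± 0.077 (SE), reading 11.83 and 11.79 in Blnc1 and 11.87 and 11.82 in vector arrays. The 3 smallest p-values belonged to negative members. Atp5g1, a gene for subunit c of the proton-carrying ring whose supply is known to limit ATP synthase in brown fat, read 9.81 and 9.66 in Blnc1 and 10.14 and 10.03 in vector arrays (-0.35 ± 0.093 SE). Atp5g3, another subunit c gene, stood at -0.22 ± 0.075 and the stalk subunit gene Atp5j at -0.21 ± 0.075 (SE). With the level-dependent prior these 3 fell and no other member was called (limma adjusted p = 0.0048, 7.05e-04 and 0.00413), 3 of 23 where that prior called 4.94% of all genes lower. No gene of this list averaged below the array medians, and the share among equally bright genes was not counted. The median of the list was 0.016 with the arrays centred.

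Other carriers and kinases that handle nucleotides or high-energy phosphate, not all of them mitochondrial, had 12 measured genes of 18 listed. Of these 11 were positive, against 51.6% of all genes, and none passed, with a median of 0.17. The nearest were Slc25a33, a pyrimidine nucleotide carrier (0.43 ± 0.078 SE), the mitochondrial adenylate kinase Ak4 (0.66 ± 0.19) and the coenzyme A carrier Slc25a42 (0.28 ± 0.11). The Ak4 probe sets disagreed: a dimmer one passed at 0.85 and another stood at -0.22. The other Slc25a42 probe set stood at -0.072. With the level-dependent prior Slc25a33 and Ak4 rose, 2 of 12 against 6.38% of all genes called higher. Of 4 distant relatives listed 2 were measured, Slc25a14 and Slc25a30, mitochondrial carriers also described as uncoupling-protein-like. They stood at -0.021 ± 0.12 and 0.16 ± 0.12 (SE) and did not pass. The other Slc25a30 probe sets disagreed in sign, at -0.14 and 0.082, and did not pass.

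Among the 34 other measured SLC25 carriers the median was 0.097, against 0.0073 over all genes, and 23 were positive, against 51.6%. Of the 34, 1 rose, where 0.86% of all genes were called higher. It was Slc25a35, a carrier whose substrate is not settled, which read 5.35 and 5.46 in Blnc1 and 4.83 and 4.79 in vector arrays (1.51-fold, limma adjusted p = 0.0460). That rise did not pass without any 1 of the 4 arrays. With repeated quantile normalization no carrier of this list passed. Slc25a10, the dicarboxylate carrier, read 8.39 and 8.13 in Blnc1 and 8.87 and 8.79 in vector arrays. It stood at -0.57 ± 0.11 (SE) and did not pass, its other probe set being at -0.25. With the level-dependent prior 4 carriers rose and 1 fell, 5 of 34 where it called 11.3% of all genes.

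The measured genome neighbours of the members showed no change like that of Ucp1. Of 16 neighbours 9 were measured. None of the 9 passed, 7 were positive, against 51.6% of all genes, and the median was 0.086. It was 0.15 without Blnc1 replicate 1 and 0.029 without Blnc1 replicate 2. Next to Ucp1, Elmod2 read 9.10 and 9.17 in Blnc1 and 9.09 and 9.20 in vector arrays (log2 fold change -0.0094 ± 0.083 SE). On the other side Rnf150, which lies beyond the unmeasured adjacent gene Tbc1d9, stood at 0.047 ± 0.16 (SE). The 95% intervals of Elmod2 and Rnf150, -0.21 to 0.19 and -0.34 to 0.44, did not reach the change of Ucp1. Mgat4d, beyond Elmod2, was not measured either. Near Slc25a4, Snx25 and Cfap97 stood at 0.15 and 0.032. Near Slc25a5, Ube2a stood at 0.20 ± 0.080, Akap17b at 0.086 and C330007P06Rik at -0.12 (limma adjusted p of all 9 at least 0.245). Ube2a alone passed with the level-dependent prior (limma adjusted p = 0.0237), 1 of 9 where 6.38% of all genes were called higher. In the main fit the other probe sets of Ube2a and Cfap97 stood at 0.051 and 0.27 and did not pass.

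**Figure D4:**
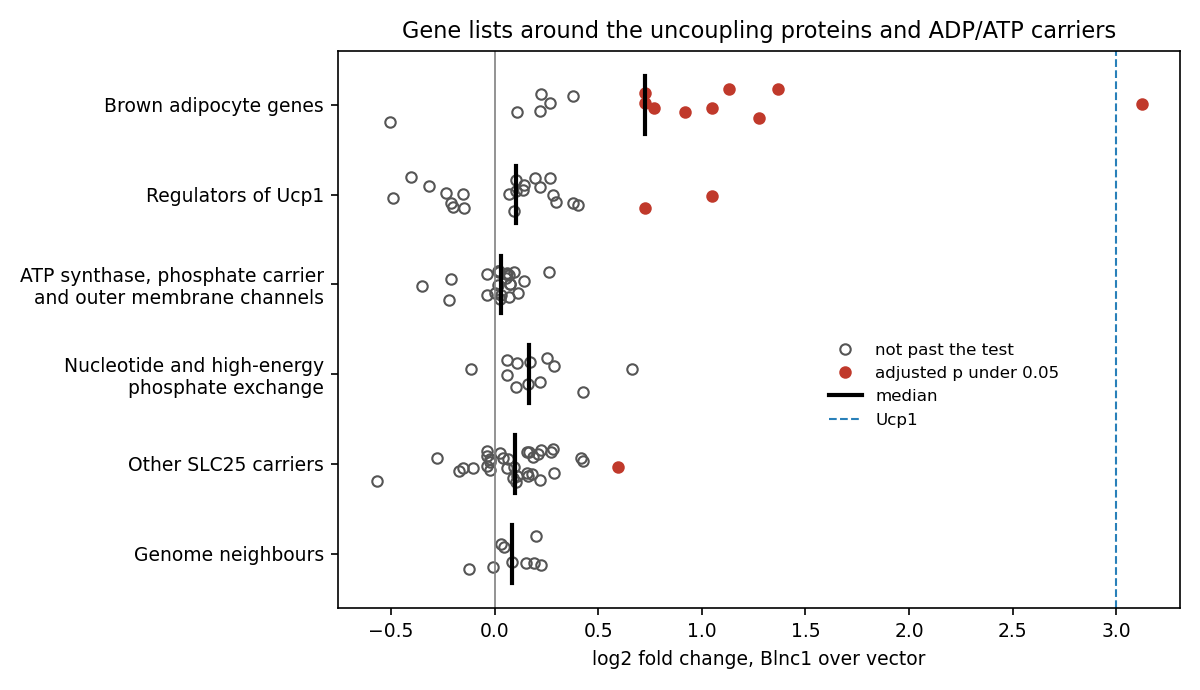
Log2 fold change of each measured gene, Blnc1 over vector, in 6 gene lists. Filled points passed an adjusted p of 0.05, open points did not, bars are medians and the dashed line is Ucp1. Cidea alone lies beyond Ucp1, and the medians of the other 5 lists stay between 0.032 and 0.17 against 0.73 for the brown adipocyte genes.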

How the data were processed

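Expression was measured in 4 mouse brown adipocyte samples on single-colour Affymetrix arrays. The deposited table holds log2 expression values, 1 per probe set and array, and the submitters' processing notes name RMA, affy and limma without versions or order. The log2 scale was read from the range of 2.70 to 13.29. Probe intensities were not used here, the array number limits precision, and RMA compresses changes of dim probe sets. No value column was left unmapped to a sample. Control probe sets (35) were left out, leaving 23599.

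Gene names came from GEO's annotation of the array: 16692 had 1 gene symbol, 372 several and 6535 none. Groups came from the sample titles. All probe sets were fitted together with limma 3.58.1 under R 4.3.3 (lmFit, then eBayes; two-sided test without covariates; Benjamini-Hochberg threshold 0.05; prior of 3.95 degrees of freedom and SD 0.0917). A gene with several probe sets was represented by the brightest over all 4 arrays. The differences between members' responses were compared by an exact permutation test over arrays. Alternatives were other variance priors, scalings, filters, probe set means, a block and leaving out each array.

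The members and gene lists were chosen with earlier results of these data known. The genes named were all member probe sets, the list genes past the threshold and otherwise the 3 with the smallest p (all genes in lists of up to 5 measured genes), the genome neighbours, and the 5 genes closest in pattern to a member past the threshold; the few named outside this rule are marked as chosen after their values were seen. Promoter sequences are RefSeq's (GRCm38.p6), and their motifs were chosen after the sequences were read.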

Additional observations from a re-analysis of the deposited data

How the results depend on the processing

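Under all alternatives Ucp1 stayed higher and past the threshold, with log2 fold changes of 2.96 to 3.04. Of the 76 member values recomputed, 74 kept their direction and side of the threshold; the exceptions were Slc25a4 with a level-dependent variance prior (limma adjusted p = 0.0038), which took the member probe sets past the threshold to 2, and the Slc25a5 probe set 1423772_PM_x_at, which turned to -0.0030 after repeated quantile normalization. Ucp3 had no value without the dimmer probe sets, and Slc25a5 none without those prone to cross-hybridisation. All 36 recomputed differences between members kept their sign. The count of all probe sets past the threshold, 219, became 2174 with the level-dependent prior, 1021 without the dimmer probe sets, 30 with the replicate block and 3 to 38 without 1 array. Centring the arrays gave 176 higher and 135 lower probe sets, against 147 and 72. After repeated quantile normalization 155 probe sets passed, with 8 brown adipocyte genes, 1 regulator and no other SLC25 carrier among the lists. Same-numbered arrays deviated together only weakly (r = 0.0894 across probe sets) and the labels do not pair them; with the replicate block Ucp1 had an adjusted p of 0.0109, 4 brown adipocyte genes, no regulator and no other SLC25 carrier passed, and no member's call changed. Without the dimmer probe sets, where 1021 of 11800 probe sets were called, 6 regulators and 4 SLC25 carriers passed. With probe set means the counts were 4 and 5, and the share of all genes called there is not given here. Without 1 array, the lone array of its group was assumed to vary like the other group. The cause of these shifts was not tested. Of the recomputed list medians 115 stayed within the spread between replicates and 25 moved beyond it. The level-dependent and robust priors and the replicate block cannot change a log2 fold change. Their medians, counted among the 115, therefore stayed by construction, as did the directions of the member values under these settings.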
